A study of Mus musculus with 2 samples.

Results

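The interferon response genes examined here are the 9 genes Oas2, Oas3, Oasl1, Ifi35, Isg15, Irf7, Irf9, Stat2 and Ifit1, followed in mouse embryonic stem (ES) cells with and without depletion of H2A.B, a short variant of histone H2A. Members were found by an exact match of the platform's gene symbol, which gave 9 probe sets for 8 genes out of 16563 genes with a usable value. No probe set of the annotation used here named Isg15, which therefore has no value. Several of these genes were already known to be lower on the knockdown array when the set was put together, so their differences between the arrays are a description and carry no test.

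Both groups were mouse ES cells grown without feeder cells on gelatin, in medium with serum and the leukaemia inhibitory factor product ESGRO. The group labelled control KD had received a retrovirus with a control RNA sequence, and the group labelled H2A.B KD a retrovirus with a short-hairpin RNA against H2A.B. The hairpins were expressed from the U6 promoter of a pMSCV-neo vector. The depleted cells were under G418 for 2 to 4 weeks, and the same span is listed for the control sample. Both groups had thus received a retrovirus, and that the control cells shared the drug treatment rests on this listing. The knockdown sample is titled #1 shH2A.B ES cells, and no other depleted sample was measured here. The labels give neither the strain nor whether the cells were clonal. Each group had 1 Affymetrix array made from 2 µg of total RNA. Differences therefore have no replicate error, and they compare these 2 arrays rather than the conditions. Probe sets naming an H2A.B gene numbered 0, so the depletion itself could not be checked.

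Type I interferon signalling starts when a cell senses foreign nucleic acid and secretes interferon. The interferon receptor activates the kinases Jak1 and Tyk2, and these phosphorylate signal transducers such as Stat2, which acts with Irf9 in a complex that binds the interferon-stimulated response element in target promoters. The targets include the oligoadenylate synthetases, which sense double-stranded RNA, the RNA-binding Ifit proteins, the ubiquitin-like modifier Isg15 and the transcription factor Irf7, which amplifies the response. Pluripotent ES cells are known to mount a weak interferon response compared with differentiated cells.

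The response element was searched for as GAAANNGAAA, or as TTTCNNTTTC for the other strand, in the 250 bases before each annotated start site. RefSeq windows of build GRCm38.p6 were matched by symbol for 8 of the 9 genes, Oas2 being the exception. A match stood in 4 of the 8, namely Oas3, Isg15, Ifit1 and Stat2, against 3.46% of the 27025 genes in the same promoter collection. Among the other interferon pathway genes described further on, 32 of 110 held a match. The windows of Oasl1, Ifi35 and Irf7 and both windows of Irf9 held none, which says only that these letters are not in those windows. The 4 promoters with a match are shown because they place the element, in capitals, before 3 genes with unlike values and before Isg15, which has none; each is read 5′ to 3′ on the gene's own strand.
Oas3, minus strand, chr5:120777680-120777779: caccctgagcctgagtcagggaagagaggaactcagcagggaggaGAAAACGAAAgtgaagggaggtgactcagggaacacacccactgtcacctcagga
Isg15, minus strand, chr4:156200839-156200938: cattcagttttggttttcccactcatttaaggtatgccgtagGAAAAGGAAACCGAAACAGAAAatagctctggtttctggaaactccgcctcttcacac
Ifit1, plus strand, chr19:34640769-34640868: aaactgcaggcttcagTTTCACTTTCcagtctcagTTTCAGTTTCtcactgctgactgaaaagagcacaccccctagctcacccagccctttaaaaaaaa
Stat2, plus strand, chr10:128270248-128270347: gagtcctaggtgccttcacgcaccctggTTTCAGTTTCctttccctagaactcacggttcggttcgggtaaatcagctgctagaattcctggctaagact
Isg15 carries 3 overlapping matches, the first beginning 78 bases before the start site, a number reached by only 4 of 32851 windows. Ifit1 carries 2, which begin 104 and 85 bases before it. Oas3 has a single match at 75 bases and Stat2 a single match farther out, at 222 bases.

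The values are log2 intensities from RMA, a procedure that removes background, brings the arrays to a common distribution and combines the probes of a probe set into a single value. A log2 difference is given as knockdown minus control. The deposited table has faults that differ along its length, and it is divided here into a first section of 18184 probe sets, a middle section of 15458 in which 1455 control values repeat a value from at most 20 rows above, and a last section of 11476. Of the 9 member probe sets, 7 lie in the first section and 2, for Ifit1 and the dimmer Stat2 probe set, in the last. None of the 9 was among the knockdown values that are not log2 intensities or among the repeated control values. Over probe sets past the expression filter (a mean of both arrays of at least 6.73, the median over genes), absolute differences had a median of 0.05 for the first section, 0.14 for the middle section and 0.15 for the last section.

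The cells carried ES cell markers on both arrays. All 12 measured markers of 13 listed passed the filter, with control levels from 10.14 to 14.24. The 3 with the highest control level were Dppa5a, Pou5f1 and Sox2, which differed by -0.02, -0.01 and 0.03. Of 16 measured blood and immune cell markers, only Cd68 passed the filter. Their summed linear intensity was 1011 in control and 1035 in knockdown cells. Without Cd68, which was higher by 0.22, the other 15 summed to 629 and 589. Below the filter, 3 of them were at least 1.3-fold lower, Lyz2 by -1.09, Lyz1 by -1.01 and Ptprc by -0.44, and 0 were higher. Of all genes below the filter, 12.3% were that much lower and 6.81% that much higher. Laptm5 differed by 0.34, with -0.41 on its dimmer probe set, Adgre1 by 0.22 and Cd52 by 0.20. Fibroblast and feeder markers, 6 of 14 past the filter, summed to 2991 in control and 3262 in knockdown cells. Without Vim, which was higher by 0.34, they summed to 1491 and 1368. Of these 13 genes, only Fbln1 was at least 1.3-fold lower, by -0.69, and 0 were higher. Of all genes, 10.1% were that much lower and 4.98% higher. Fbln1 was read from the last section, with -0.04 and -0.13 on its dimmer probe sets. The median difference over all 14 fibroblast and feeder markers was 0.03. The other fibroblast and feeder markers past the filter were Col1a1 (0.25), Col3a1 (0.07), Thy1 (0.07) and S100a4 (-0.06). The part of such cells in the differences of Oas2, Oas3, Oasl1 and Ifi35 was not tested. In bulk RNA, fewer cells expressing a gene and less RNA per cell cannot be told apart.

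Of the 8 measured genes, 4 were lower in the knockdown cells by at least 1.3-fold and none was at least 1.3-fold higher when each gene was read from its brightest probe set. The 4 were Ifi35, Oas2, Oasl1 and Oas3, all past the expression filter. The same difference was reached by 10.1% of all genes, by 7.93% of genes past the filter and by 1.95% of those read from the first section, where these 4 lie. A difference of 1.3-fold upward was seen in 4.98% of all genes. Because the genes were chosen on this contrast, nothing is read from the count. The median over the 8 genes was -0.28, against -0.0056 over all genes. None of the 8 was 1.5-fold lower, as 6.24% of all genes were.

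**Figure D1:**
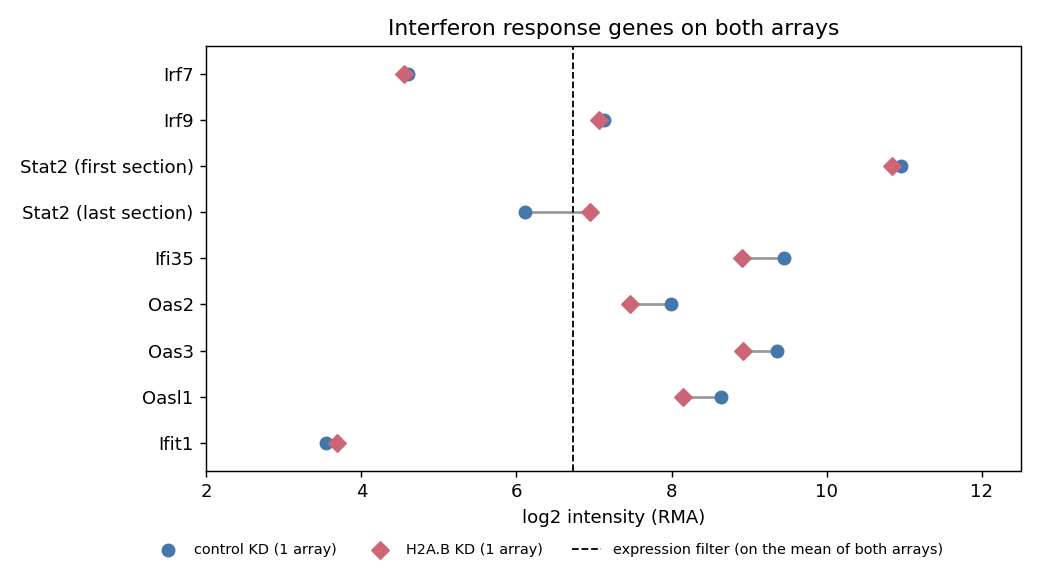
Log2 intensity of every probe set of the 8 measured genes on the control array (circles) and the knockdown array (diamonds), 1 array each, with the expression filter as a dashed line. Ifi35, Oas2, Oas3 and Oasl1 lie above the filter and differ by -0.55 to -0.44; the dimmer Stat2 probe set goes the other way, and Irf7 and Ifit1 lie far below the filter.

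The oligoadenylate synthetase Oas2, which makes oligoadenylates that switch on RNase L, had a log2 intensity of 7.99 in control and 7.47 in knockdown cells. Its knockdown signal was 69.5% of the control signal, a difference of -0.53. Oas3, the family member with the most synthetase-like domains and a sensor of long double-stranded RNA, had 9.36 and 8.92, which left 73.6% of the control signal. Oas3 and Oas2 are direct neighbours in the gene order of chromosome 5, with Oas1e and Oas1c next in line. Oasl1, a synthetase-like protein without synthetase activity that is known in mouse to restrain translation of Irf7, had 8.64 and 8.15, or 71.4% of control. It lies apart from the other two on that chromosome, beside Oasl2. Each of these genes had a single probe set, so no second reading of the difference exists within the arrays.

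Ifi35, an interferon-induced leucine-zipper protein that partners with Nmi, was the lowest of the set relative to control. It had 9.45 in control and 8.91 in knockdown cells, or 68.4% of control and a difference of -0.55. Among 1736 first-section probe sets within 0.5 of its mean level, 0.749% had a difference as low. The corresponding shares were 1.47% for Oas3, 1.61% for Oasl1 and 1.81% for Oas2. As the genes were chosen on this contrast, these shares describe where their values lie and are no test. Nmi itself lay below the filter, with 5.85 in control and 5.85 in knockdown cells.

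On their brightest probe sets the transcription factors Stat2, Irf9 and Irf7 differed by less than the 4 lower genes. Stat2 had 10.96 in control and 10.84 in knockdown cells, a difference of -0.12, on its brighter probe set. Its dimmer probe set, below the filter and in the last section, had 6.10 and 6.95, a difference of 0.85, so that the 2 readings of the gene have opposite signs and lie 0.97 apart. Of 2347 genes with a probe set in the first and one in the last section, 4.99% had readings at least that far apart, and the median distance was 0.09. The direction for Stat2 is therefore not settled by these arrays.

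Irf9, the DNA-binding partner of Stat2, had 7.13 and 7.07, a difference of -0.06 just above the expression filter. Irf7, which the interferon response itself induces, had 4.60 and 4.55, below the filter and below the control array's median of 5.64 over usable probe sets. Of first-section probe sets of like brightness, 22% lay as low as Irf9 and 27.8% as low as Irf7. Both differences are therefore well inside the spread of probe sets of their brightness.

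Ifit1, an RNA-binding effector that is among the most strongly interferon-induced genes in many cell types, was dim on both arrays. It had 3.54 in control and 3.69 in knockdown cells, and 15.5% of last-section probe sets of like brightness had a difference as high as its 0.15. Whether Ifit1 RNA was present on either array cannot be said, since the table gives no detection call. Among the measured genes with the response element in the windows shown, Oas3 was lower, Stat2 had opposite signs on its probe sets and Ifit1 was higher by 0.15 at a level far under the filter.

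The size of the 4 lower values has a counterpart in the shape of the first section. Past the filter, successive bins of 0.05 from -0.55 to -0.35 held 32, 29, 29 and 36 probe sets, and no probe set lay between -0.60 and -0.55. The empty stretch runs from -0.60 up to -0.55, and Ifi35 lies at its edge. On the other side no probe set lay between 0.50 and 0.55, and the bins fell from 45 probe sets to 5 at 0.40. The middle and last sections fell at 0.40 too, from 67 to 20 and from 57 to 25. The 1.3-fold rule, at 0.38, lies just under this drop. Within the range spanned by the 4 genes there were 66 of the 7742 first-section probe sets, the 4 included. Whether the values behind this uneven distribution, those of the 4 genes included, are as measured is not known, and its part in their differences was not tested.

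**Figure D2:**
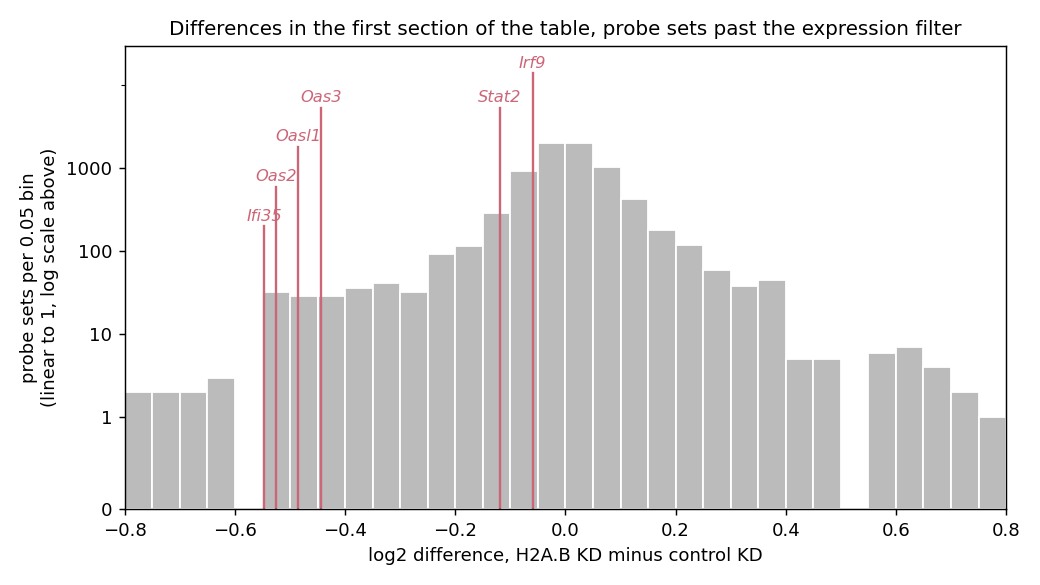
Number of first-section probe sets past the expression filter in each 0.05-wide bin of log2 difference, on a vertical axis that is linear up to 1 and logarithmic above, with the 6 interferon response genes of that section as vertical lines whose height has no meaning. Ifi35, Oas2, Oasl1 and Oas3 sit on a flat stretch of 29 to 36 probe sets per bin that ends at -0.55, while Irf9 and Stat2 lie in the central peak.

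The rest of the interferon pathway was taken from 8 lists by role. Of 136 measured genes outside the set, 51 passed the filter. Of these, 3 were at least 1.3-fold lower and 2 at least 1.3-fold higher, against 7.93% and 3.15% of all genes past the filter. Their median difference was 0.03 and that of all genes past the filter -0.0016. The lower genes were the kinase gene Tbk1, the nuclear body gene Pml and Pias3, all read from the last section, where 17.1% of genes were that much lower. The dimmer Tbk1 probe set, in the first section, went the other way with 5.69. In the first section, 0 of 30 were 1.3-fold lower, and 2, Oas1e and Rsad2, were higher, against 1.95% and 0.63% of all first-section genes past the filter. Rsad2 only just reached the rule, at 1.302-fold, and its dimmer probe sets differed by -0.35 and -0.57. Centring both arrays on their medians left 3 lower genes and raised the count of higher ones from 2 to 6. Lowess centring also left 3 lower genes but reduced the higher ones to 1.

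**Figure D3:**
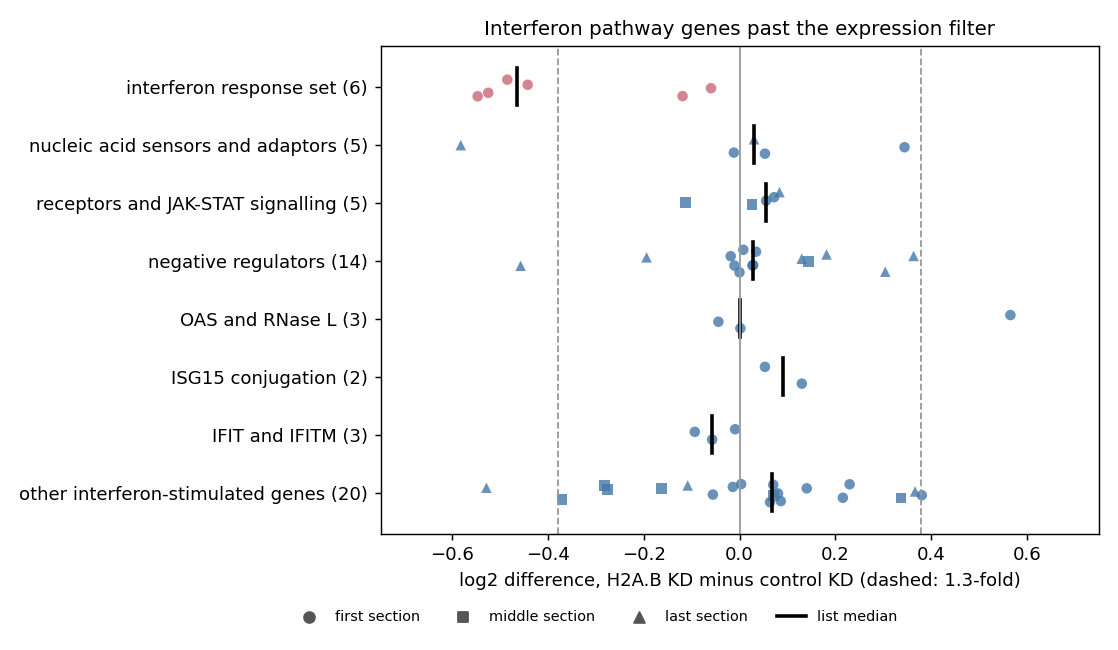
Log2 difference of each interferon pathway gene past the expression filter, by role, with the number of genes in parentheses; marker shapes give the section of the table, the black bars the list medians and the dashed lines a 1.3-fold difference. Apart from the interferon response set, whose members were chosen on this contrast (median -0.46 over the 6 genes past the filter), list medians lie between -0.06 and 0.09.

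Interferon ligand genes were dim throughout: 11 were measured and 0 passed the filter. Ifnb1, the first type I interferon that most infected cells make, had 4.60 on both arrays. Ifna7, the ligand gene with the highest mean over both arrays, had 5.67 in control and 5.80 in knockdown cells.

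Sensor and adaptor genes had 5 of 18 past the filter. Tbk1, the kinase that activates Irf3, had 9.97 in control and 9.38 in knockdown cells, a difference of -0.58. Its other probe set, below that level but past the filter in its mean, had 4.45 and 10.14, a difference of 5.69 the other way. The RNA sensor gene Dhx58 had 12.41 and 12.76 (0.34), with -0.12 and 0.05 on its dimmer probe sets. The ubiquitin ligase gene Trim25 differed by 0.05 and the adaptor gene Mavs by 0.03.

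Of the receptor and kinase genes outside the set, 5 of 13 passed the filter. The receptor gene Ifnar1 had 7.87 in control and 7.75 in knockdown cells (-0.11). The kinase genes Tyk2 (0.07) and Jak1 (0.06) and the transcription factor gene Stat3 (0.08) differed by less than 0.1. Of these 5 genes, 0 were 1.3-fold different. Below the filter, the receptor gene Ifnar2 differed by 0.38, with -0.33 and -0.04 on its dimmer probe sets, Ifngr1 by 0.23 and Ifnlr1 by -0.22.

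Negative regulators had 14 of 21 genes past the filter, with a median of 0.03. Pias3, a SUMO ligase named as an inhibitor of activated Stat3, had 7.53 and 7.07 (-0.46), against -0.12 on its dimmer probe set. The phosphatase gene Ptpn11 (0.36) and Trim28 (0.30), which represses endogenous retroviruses in ES cells, were higher by less than 1.3-fold. The phosphatase gene Ptpn6 differed by -0.19.

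Within the oligoadenylate synthetase family the differences ran both ways. Past the filter, Oas1e had 8.85 in control and 9.41 in knockdown cells (0.57), while Oas1d differed by -0.04 and Oas1g, the brightest, by 0.0017. Below the filter, Oas1h had 6.58 and 6.04 (-0.54), Oasl2 differed by -0.21 and Oas1f by -0.19, whereas Oas1b and Oas1c differed by 0.41 each from control levels of 2.82 and 3.15. The lower values of Oas2, Oas3 and Oasl1 were thus not shared by the Oas1 genes past the filter. Oas1 genes are close copies of each other, and probes of one may bind RNA of another.

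**Figure D4:**
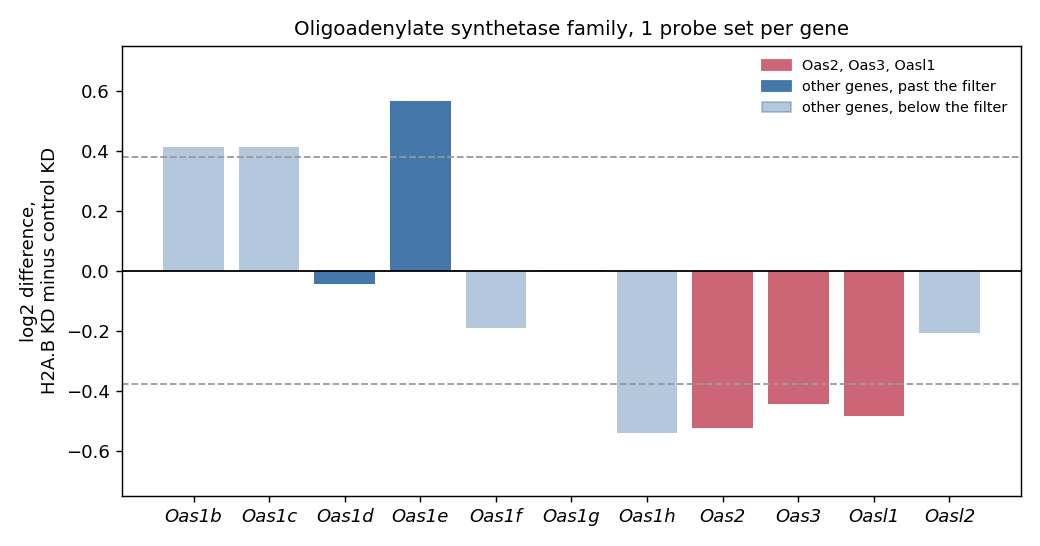
Log2 difference of the 11 measured oligoadenylate synthetase family genes, 1 probe set each, with dashed lines at a 1.3-fold difference and pale bars for genes below the expression filter; there is 1 array per group and no error bar. Oas2, Oas3 and Oasl1 lie between -0.44 and -0.53, Oas1e lies at 0.57, and Oas1g has no visible bar.

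Genes of the Isg15 conjugation system past the filter were higher by little. The activating enzyme gene Uba7 had 9.68 in control and 9.81 in knockdown cells (0.13), with 0.07 and -0.13 on its dimmer probe sets, and Trim25 is shared with the sensor list. The deconjugating protease gene Usp18, the conjugating enzyme gene Ube2l6 and the ligase gene Herc6 lay below the filter with differences of -0.05, -0.09 and -0.17.

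The membrane proteins Ifitm1, Ifitm2 and Ifitm3, which block virus entry and are known to be expressed in pluripotent cells, were bright on both arrays. They had 12.61, 11.77 and 12.00 on the control array and differed by -0.06, -0.09 and -0.01. Their level beside the dim Ifit genes is given without comparison, since levels of different probe sets are not on a common scale. Ifit2 and Ifit3, below the filter, differed by -0.01 and -0.10.

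Of 20 other interferon-stimulated genes past the filter, 1 was at least 1.3-fold lower and 1 at least 1.3-fold higher, with a median of 0.07. Pml had 8.69 and 8.16 (-0.53), and its dimmer probe set -0.40. Rsad2, which encodes the antiviral enzyme viperin, had 9.51 and 9.89 (0.38), but its dimmer probe sets went the other way with -0.35 and -0.57. Dtx3l, a ubiquitin ligase gene, differed by -0.37 and Ifi203 by 0.37, with 0.13 on the other Ifi203 probe set.

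Below the filter, 85 pathway genes outside the set were measured. Of these, 5 were lower by 2-fold or more in the knockdown cells and 0 were 2-fold higher, against 4.54% and 1.58% of all genes below the filter. They are named here after their values were seen. Socs3, the feedback inhibitor of cytokine receptors that leukaemia inhibitory factor also induces, had 5.14 in control and 3.27 in knockdown cells (-1.87) on a single probe set of the first section. Nlrc3, a restraint on nucleic acid sensing, differed by -1.73 and -1.08 on its 2 probe sets, and the nuclear body gene Sp100 by -1.67 and -1.05. Ifna5 differed by -1.50 and Ifit1bl1 by -1.41, each on a single probe set. All of these knockdown values lay under that array's median of 5.59.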

How the data were processed

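Expression was measured on 1 Affymetrix array for each of 2 groups. The submitters' processing notes name RMA, without a version, as the method with which the authors made the log2 intensities they deposited. The table does not state its scale, which was taken as log2 because control values run from 0.801 to 14.5. In the knockdown column, 618 values were left out: 616 that rise in steps of 1 between rows 2054 and 4710, and 2 above 20. In the control column, 1455 values identical to a value up to 20 rows above were left out. Gene names came from the platform's annotation, and only the 28898 naming 1 gene were used; 28689 of these matched a GRCm38.p6 gene table, used for symbols and gene order. These exclusions removed 7 probe sets of listed pathway and marker genes and none of the members.

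Each gene was read from its brightest probe set by the mean of the arrays. With 1 array per group no test was possible, and a difference of at least 1.3-fold was counted. The members, the lists, the fold and the processing were chosen with earlier results of these data known. Named genes are all members on every probe set and, of each pathway list, up to 4 other genes past the filter with the largest absolute difference; for the list with none past it, the brightest; of the ES marker list, the 3 brightest. Other genes (Ifnb1, Nmi, marker genes outside that list, family members and those below the filter) were named after their values were seen. The spread between probe sets of one gene past the filter had a median SD of 0.05 over 2556 genes. The SD was over 0.3 for 11.5% of them, and for 14.4% of genes with probe sets in different sections. This spread is no replicate error, and precision is limited by the number of arrays. The procedure was run on simulated arrays with planted changes and the same noise (SD 0.05) for every probe set. These lacked the wider spread of the middle and last sections and the uneven shape of the first. They check the code and say nothing about the differences reported here. Analyses used Python 3.11.15, pandas 2.3.3 and statsmodels 0.14.6.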

Additional observations from a re-analysis of the deposited data

How the results depend on the processing

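Other settings were the median over probe sets, unsuffixed probe sets (no s, x or a), median or lowess centring, 1.5-fold and 2-fold rules, a changed expression filter, and keeping the repeated control values or leaving out both values of each pair. The 4 lower members numbered 4 under each of these except the fold rules, where the count was 0 at 1.5-fold and 0 at 2-fold. Each of the 4 has a single unsuffixed probe set, past the filter and outside the repeats. Only the centrings could therefore change their values, and the unchanged count under the probe set, filter and repeat settings was fixed in advance. The median over the members became -0.46 over 6 genes both without suffixed probe sets and with the expression filter applied, because Irf7 and Irf9, or Irf7 and Ifit1, drop out. The difference of Stat2 became 0.36 with the median over its probe sets. The count of lower pathway genes outside the set, 3 of 51, became 0 with either larger fold and 14 of 136 with the filter off (against 10.1% of all genes). It was 0 of 30 in the first section alone, a setting chosen after seeing the data. With the median over probe sets it was 2 of 55, against 6.73% of all genes past the filter. Keeping the repeated control values made it 4 of 52, against 8.03%. That setting brings in a probe set of the RNA sensor gene Ddx58 with 9.11 in control and 8.66 in knockdown cells. The other Ddx58 probe sets differed by -0.52 and 0.36. The median over the pathway genes outside the set stayed between 0.0041 and 0.07. Leaving out a replicate was not possible with 1 array per group. No paired analysis was possible because each group has 1 array.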

Other observations

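Among pathway genes outside the set with a promoter match to the response element, 7 of 32 passed the filter. Of the 7, 0 were 1.3-fold lower and 1, Rsad2, was higher (median 0.22, from -0.09 to 0.38). The dimmer Rsad2 probe sets went the other way, with -0.35 and -0.57. Among those without a match, 35 of 78 passed, with 3 lower, 0 higher and a median of 0.03. Of all genes past the filter, 7.93% were that much lower and 3.15% higher, and the 3 lower genes, Tbk1, Pml and Pias3, were read from the last section, where 17.1% were lower. The dimmer Tbk1 probe set went the other way, with 5.69. Whether the groups differ was not tested.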
